A study of Rattus norvegicus with 29 samples.

Results

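Primary rat renal proximal tubule epithelial cells were exposed to TCDD (2,3,7,8-Tetrachlorodibenzodioxin) or to trichloroethylene, and the 2 pollutants were set directly against each other at 24 h. The comparison rests on 6 of the 29 libraries of the series, 3 with TCDD and 3 with trichloroethylene, chosen by their titles and time labels. Libraries of the same compounds at 6 h (3 each) and of control cultures at 6 h (2) and 24 h (3) are given beside them. Acetaminophen and gentamicin cultures of the series, with 3 libraries each at 6 h and at 24 h, also entered the statistical fit. Their 24 h levels are given for the transcripts described by name. The cells carry no transgene or mutation in the labels, and the sources used here state neither the doses and vehicle nor how many animals or cultures were used. The replicates may therefore be technical, in which case the p-values reflect technical spread alone.

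Proximal tubule cells reabsorb most of what the glomerulus filters and take up many foreign compounds from the blood. TCDD is a dioxin that is hardly metabolised and binds the aryl hydrocarbon receptor, a ligand-activated transcription factor that moves to the nucleus and switches on genes such as those of cytochrome P450 enzymes. Trichloroethylene is an industrial solvent that acts mainly through its metabolites: cytochrome P450 enzymes oxidise it, and a second route conjugates it to glutathione, whose cysteine products are bioactivated in the proximal tubule. RNA levels are given here per Ensembl transcript, because neither the files nor the reference table used here pair these identifiers with gene names. Receptor targets and cell type markers were for that reason not analysed here, and the results below concern groups of transcripts and 4 identifiers given by name.

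The 6 libraries held between 9472749 and 10090054 estimated counts, and of 28420 transcripts 15990 had enough counts to be tested. The distance between libraries was taken as the root mean square difference in log2 CPM (counts scaled to library size) over the tested transcripts. TCDD and trichloroethylene libraries at 24 h lay 1.06 to 1.20 apart, with a median of 1.12. Libraries within the TCDD group lay 0.622 to 0.747 apart and those within the trichloroethylene group 0.565 to 0.614. No distance between the compounds was as small as any within a compound. From the 24 h controls, the trichloroethylene libraries were 0.788 to 0.977 away and the TCDD libraries 1.25 to 1.42. At 6 h the distances between the compounds, 0.592 to 0.695, overlapped those within each compound.

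At 24 h, 9480 transcripts differed between the compounds, which is 59.3% of those tested. The split was even, with 4740 higher with TCDD and 4740 higher with trichloroethylene, each 29.6% of the tested transcripts (edgeR quasi-likelihood test, Benjamini-Hochberg adjusted p under 0.05). The median log2 difference, TCDD minus trichloroethylene, was 0.78 among the first and -0.93 among the second. Many of the differences were small: 1492 of the transcripts higher with TCDD and 1215 of those higher with trichloroethylene differed by less than 1.5-fold. In 4409 and 4455 cases, respectively, the 3 libraries of one compound all lay beyond the 3 of the other. Over all tested transcripts the groups did not overlap in 61.9%.

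The even split holds for the TMM scaling, which centres the typical transcript near no difference. With total counts as the scale, 3529 transcripts were higher with TCDD and 5882 with trichloroethylene, and the median of all tested transcripts shifted to -0.18 on the log2 scale. On log2(TPM + 1), where TPM is a level scaled to both transcript length and library size, limma called 2248 and 7377, and the median shifted to -0.32. Directions below are thus relative to the typical transcript.

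Large differences were not distributed evenly. More than 2-fold differences numbered 1532 toward TCDD and 2169 toward trichloroethylene, or 9.58% and 13.6% of the tested transcripts, and over 4-fold 401 and 512. At the far end the order turned: 157 transcripts were over 8-fold higher with TCDD and 107 over 8-fold higher with trichloroethylene, and over 16-fold the counts were 59 and 16. The turn at 8-fold depended on the scale, since total counts gave 127 and 149 and log2(TPM + 1) gave 32 and 37. The added 1 TPM also shrinks the folds of transcripts at low levels, so the last counts differ by more than the scale. Over 16-fold, TCDD led on all of these scales, with 49 against 26 on total counts and 8 against 3 on log2(TPM + 1).

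**Figure D1:**
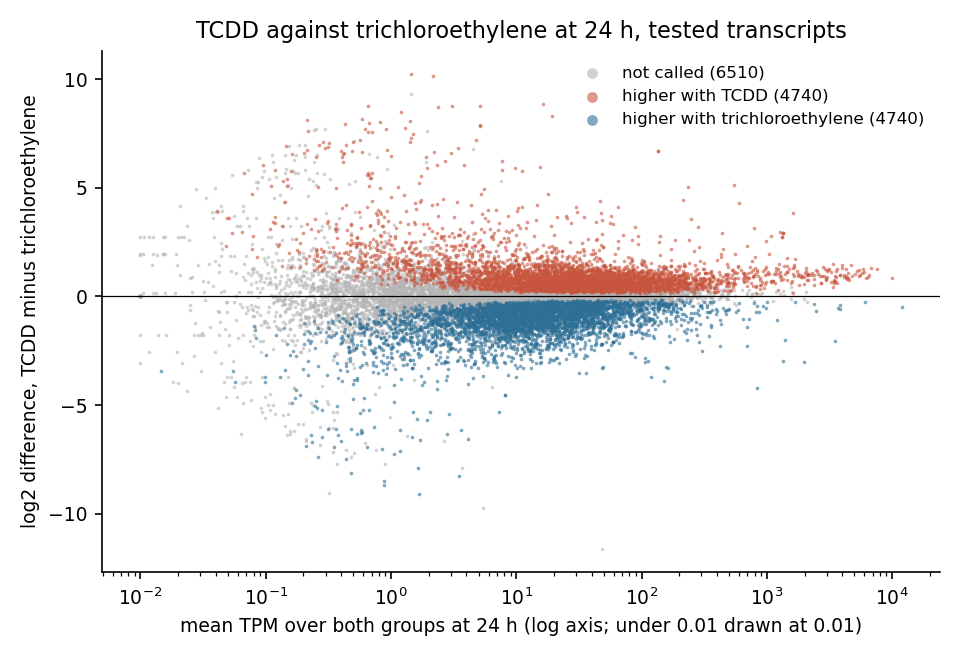
Each point is 1 of the 15990 tested transcripts, with its mean TPM over the TCDD and trichloroethylene groups at 24 h on a log axis and its fitted log2 difference on the other. Orange points (4740) were called higher with TCDD, blue points (4740) higher with trichloroethylene and grey points were not called; at the right end the most abundant transcripts form a band above 0, and at the left the grey points widen because low counts give imprecise differences.

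The transcript with the largest difference toward TCDD, among those with at least 10 counts in each of the 6 libraries and 10 TPM in one group, was ENSRNOT00000049667, of 1926 bases. It stood at 286, 189 and 325 TPM in the TCDD libraries at 24 h and at 3.41, 3.31 and 3.32 TPM in the trichloroethylene libraries. The groups are far apart, and TCDD replicate 2 is the lowest of its group. The log2 difference was 6.71 ± 0.20 (SE), or 105-fold (edgeR adjusted p = 4.2e-18). A second identifier of equal length held equal estimated counts in all 29 libraries, so the pair is 1 measurement whose reads the authors' tool divided evenly. At 6 h the TCDD libraries held 2.53, 3.21 and 2.74 TPM and the trichloroethylene libraries 2.54, 2.33 and 2.48 TPM, close to the 3.20 and 2.55 TPM of the controls. The 24 h controls, at 2.05, 1.90 and 2.10 TPM, lay below every trichloroethylene library, but that gap did not pass (log2 change 0.68 ± 0.28, edgeR adjusted p = 0.056).

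ENSRNOT00000071549, of 1047 bases, was the next that is not such a copy; it was chosen as a replacement after the values were seen. Its TPM was 1147, 812 and 1216 with TCDD and 27.0, 53.1 and 41.6 with trichloroethylene, and 11.7, 14.6 and 20.4 in the 24 h controls. The 3 groups follow each other without overlap, control lowest and TCDD highest. The log2 difference between the compounds was 5.14 ± 0.27 (SE; edgeR adjusted p = 3.6e-13). Both compounds were also above the shared 24 h controls, TCDD by a log2 change of 6.48 ± 0.29 and trichloroethylene by 1.34 ± 0.28 (edgeR adjusted p = 1.7e-14 and 0.00057). In this transcript the compounds differ in the size of a change that has 1 direction. At 6 h the TCDD libraries read 22.1, 43.2 and 26.8 TPM and those of trichloroethylene 19.4, 20.5 and 17.6 TPM, which did not pass (edgeR adjusted p = 0.55).

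Toward trichloroethylene, the largest difference was that of ENSRNOT00000030765, a short and abundant transcript of 347 bases. Trichloroethylene libraries held 1818, 1348 and 1691 TPM of it and TCDD libraries 53.8, 52.4 and 71.7 TPM. At 6 h it was abundant with either compound, with 1570, 1660 and 1638 TPM in the TCDD libraries and 1452, 1678 and 1413 TPM in those of trichloroethylene. The 24 h controls held 1977, 2050 and 1804 TPM. TCDD at 24 h is the only one of these groups with a low level. The log2 difference between the compounds was -4.20 ± 0.11 (SE; edgeR adjusted p = 2.7e-19), and from 6 h to 24 h the log2 change was -4.24 ± 0.11 with TCDD and 0.11 ± 0.09 with trichloroethylene (edgeR adjusted p = 2.2e-19 and 0.33).

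ENSRNOT00000041456, of 773 bases, differed by the other route. Its level was 242, 301 and 322 TPM with trichloroethylene at 24 h and 16.4, 11.4 and 14.6 TPM with TCDD, while the controls of that time held 20.8, 21.0 and 37.9 TPM. Of these 24 h groups it is trichloroethylene that stands apart. The log2 difference between the compounds was -3.88 ± 0.24 (SE; edgeR adjusted p = 3.3e-12). Against the shared controls, trichloroethylene was higher by a log2 change of 3.42 ± 0.23 and TCDD gave -0.46 ± 0.27 (edgeR adjusted p = 6.7e-11 and 0.13). Over time the compounds moved it in opposite directions, since from 6 h to 24 h the log2 change was 2.35 ± 0.21 with trichloroethylene and -1.78 ± 0.25 with TCDD (edgeR adjusted p = 4.2e-09 and 1.1e-06). Controls changed in the direction of TCDD, with a log2 change of -1.69 ± 0.25 (edgeR adjusted p = 8e-05).

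**Figure D2:**
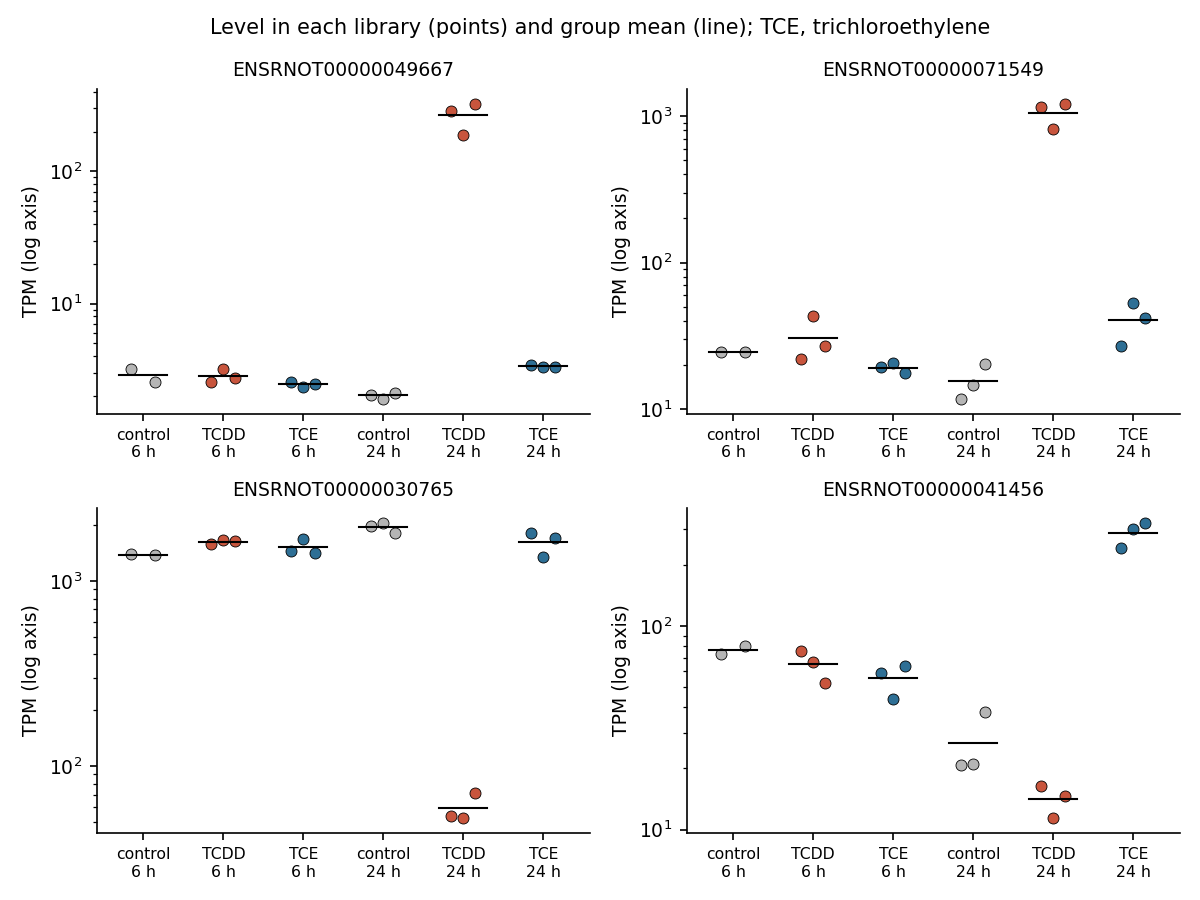
TPM on a log axis of 4 transcripts in each library (points) of the control, TCDD and trichloroethylene groups at 6 h and 24 h, with the group mean as a line. ENSRNOT00000049667 and ENSRNOT00000071549 are high only in the TCDD libraries at 24 h among the libraries drawn, ENSRNOT00000030765 is low only there, and ENSRNOT00000041456 is high only in the trichloroethylene libraries at 24 h.

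These 4 were not alike in the other compounds of the series. ENSRNOT00000049667 also stood at 204 ± 5.62 TPM with gentamicin at 24 h (SD, n = 3), so its high level is not particular to TCDD. With the same compound and time, ENSRNOT00000071549 was at 23.9 ± 2.29 TPM, and with acetaminophen at 24 h it was at 64.4 ± 17.7 TPM, beside 15.6 ± 4.43 TPM in the 24 h controls and 40.6 ± 13.1 TPM with trichloroethylene. ENSRNOT00000030765 was 416 ± 74.8 TPM with acetaminophen at 24 h and 665 ± 65.9 TPM with gentamicin, between the 2 pollutants. The 24 h controls held 1944 ± 126 TPM, above both, so a level below control is not particular to TCDD. ENSRNOT00000041456 was 180 ± 32.5 TPM with acetaminophen at 24 h and 124 ± 13.3 TPM with gentamicin, again between the 2 pollutants. Both levels lay above the 26.5 ± 9.84 TPM of the 24 h controls, so its high level is not particular to trichloroethylene.

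The 20 largest differences in each direction, taken under the same conditions on counts and TPM, reached log2 6.71 toward TCDD, with a median of 4.08 over 19 distinct transcripts, and -4.20 toward trichloroethylene, with a median of -3.22. The 19 toward TCDD had a median level of 85.8 TPM with TCDD, 5.89 TPM with trichloroethylene and 5.97 TPM in the 24 h controls. At 6 h their median level was 5.00 TPM in TCDD cultures and 5.10 TPM in trichloroethylene cultures. Among those toward trichloroethylene the median level was 49.8 TPM with that compound, 3.84 TPM with TCDD and 33.0 TPM in the 24 h controls. At 6 h these had medians of 40.6 TPM in TCDD cultures and 36.1 TPM in trichloroethylene cultures. The TCDD group is thus the one farther from the other medians in both sets, as a description of transcripts picked on these libraries.

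A few transcripts were counted with 1 compound and not with the other. In 24 cases every TCDD library held at least 10 counts and no trichloroethylene library held any, and 12 transcripts showed the reverse. With a floor of 3 counts per library for the group without counts, the 24 were at least 3.85-fold to at least 47.4-fold higher with TCDD (median of these bounds 9.30). For the 12 the bounds ran from 4.46-fold to 23.7-fold. Of the 24, 10 also had no count in the 24 h controls and 5 had none with TCDD at 6 h. Of the 12, 1 had none in the 24 h controls and 0 had none with trichloroethylene at 6 h. Most were at low levels, with medians of the group mean at 2.71 and 1.39 TPM and highest values of 38.3 and 6.93 TPM. These transcripts were picked on the 6 libraries compared, so no test of that difference is given for them.

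Against controls, the 2 compounds share the 3 control libraries of 24 h, so their changes are given side by side only. Of the 15990 transcripts, 66.9% were called for TCDD and 40.7% for trichloroethylene. The transcripts higher with TCDD than with trichloroethylene had a median log2 change against control of 0.88 with TCDD and 0.05 with trichloroethylene. Among these 4740, the test against control called 3835 up and 138 down with TCDD, where 33.9% and 33.0% of all tested transcripts were called up and down. With trichloroethylene it called 1222 up and 944 down, beside 20.7% and 19.9% of all tested. The transcripts higher with trichloroethylene had medians of -0.97 with TCDD and -0.04 with trichloroethylene. Here TCDD had 177 called up and 3831 down, and trichloroethylene 1009 up and 1233 down. In either list the median with trichloroethylene lay near control and that with TCDD did not. Both lists were picked on the same TCDD and trichloroethylene libraries. These medians and counts are therefore a description, and nothing further is read from them.

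Whether the compounds already differed early was asked with the 6 h libraries, which were not used for the calls at 24 h. The edgeR test called 0 transcripts at 6 h, with a smallest adjusted p of 0.55. Without adjustment, 1432 transcripts (8.96% of those tested) had a p under 0.05, DESeq2 called 5 and limma on log2(TPM + 1) called 0. Leaving out single 6 h libraries, the unadjusted number ran from 584 (without TCDD replicate 2) to 3034 (without TCDD replicate 3). The 6 h libraries of the compounds did not overlap in 13.9% of the tested transcripts, beside 61.9% at 24 h. The lack of calls at 6 h does not show that the compounds were equal then. The median absolute log2 difference over all tested transcripts was 0.16 at 6 h and 0.61 at 24 h, beside a median SE of 0.16 at both times. In the 4740 transcripts higher with TCDD at 24 h, the median log2 difference at 6 h was 0.03, and in those higher with trichloroethylene it was -0.01, beside 0.01 over all tested. The median early difference in either list thus lay near that of all transcripts.

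The change in the difference from 6 h to 24 h was tested by an interaction term. It passed for 7347 transcripts, or 45.9% of those tested, with 3481 (21.8%) moving toward TCDD and 3866 (24.2%) toward trichloroethylene (edgeR quasi-likelihood test, adjusted p under 0.05). Among the 9480 called at 24 h, 7053 (74.4%) passed it. The interaction holds the same 24 h difference that chose these transcripts, so this share and its direction are a description. A further 294 passed it without a call at 24 h. The 4 transcripts described above all passed.

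The time course within each compound, 24 h against its own 6 h libraries, compares the responses without any shared library. TCDD changed 10190 transcripts over that time (63.7%), of which 5190 rose and 5000 fell. Trichloroethylene changed 7602 (47.5%), with 3915 that rose and 3687 that fell, and controls changed 3985 (24.9%). Both compounds changed 5645 transcripts, which is 55.4% of the TCDD list and 74.3% of the trichloroethylene list. In 4570 of these, or 81%, the direction was the same. Controls had risen in 17.3% of those that rose with both, beside 12.3% of all tested transcripts, and fallen in 20.5% of those that fell with both, beside 12.6%.

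Where both compounds changed a transcript in 1 direction, TCDD gave the larger fitted change in 3117 cases (68.2%). The 2387 transcripts that rose with both had a median log2 change of 1.11 with TCDD, 0.82 with trichloroethylene and 0.06 in controls. The 2183 that fell with both had medians of -0.98, -0.67 and -0.06. The direct test at 24 h called 2733 of the 4570 (59.8%), a share close to the 59.3% over all tested transcripts. In 2252 of the 2733 the difference ran in the direction of the shared change, toward a larger change with TCDD, and in 481 it ran against it.

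Opposite changes over time were found in 1075 transcripts, 19% of those that both compounds changed. Of these, 526 rose with TCDD and fell with trichloroethylene, and 549 fell with TCDD and rose with trichloroethylene. On total counts these numbers were 294 and 892, and on log2(TPM + 1) 122 and 866, so their balance depends on the scale, while the share with 1 direction stayed between 79.1% and 81% on these scales. Most opposite changes were modest: in 21 of the 526 and 40 of the 549 both changes were over 2-fold. Among the 526, controls rose in 21 and fell in 207, where 12.3% of all tested transcripts rose and 12.6% fell in controls. Among the 549, controls rose in 189 and fell in 23. In both sets the more frequent direction in controls was that seen with trichloroethylene.

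The calls between the compounds can be read against these time courses. Of the transcripts higher with TCDD at 24 h, 38.1% had risen with TCDD without a call for trichloroethylene, 23.7% had risen with both, 14.1% had fallen with trichloroethylene without a call for TCDD and 11.1% had moved apart. Of those higher with trichloroethylene, 39.8% had fallen with TCDD without a call for trichloroethylene, 23.8% had fallen with both, 13.2% had risen with trichloroethylene without a call for TCDD and 11.6% had moved apart. The most frequent class in either list was thus a change called with TCDD and not with trichloroethylene. Among all 15990 tested transcripts, the classes named for the first list held, in that order, 2277, 2387, 978 and 526 transcripts. Those named for the second list held 2268, 2183, 979 and 549. The direct test and the time courses use the same 24 h libraries, and these shares are a description.

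**Figure D3:**
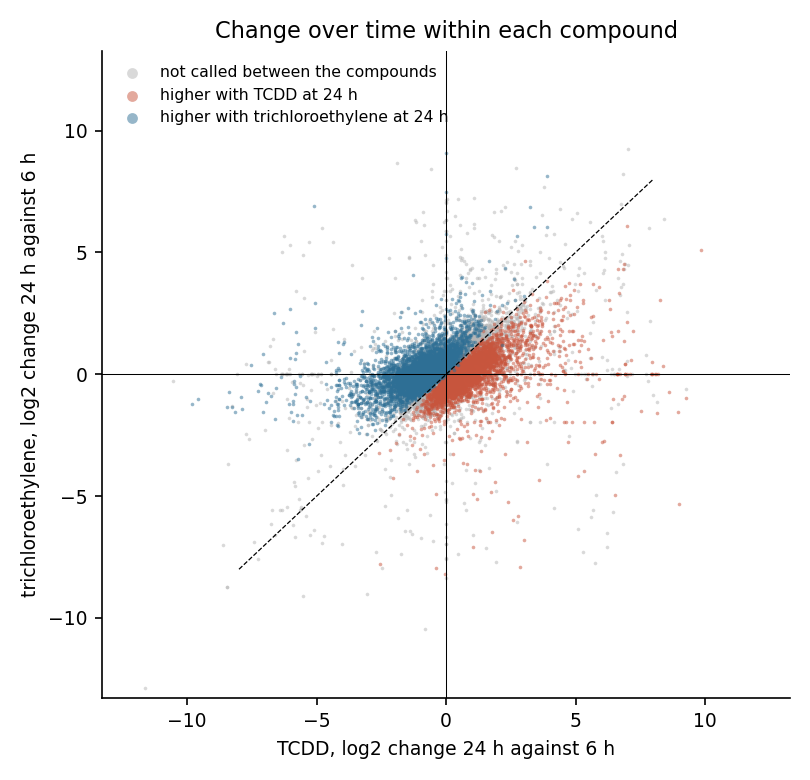
Fitted log2 change from 6 h to 24 h with TCDD (horizontal) and with trichloroethylene (vertical) for the 15990 tested transcripts, coloured by the direct test at 24 h; the dashed line marks equal change. Of the 5645 transcripts that both compounds changed, 4570 lie at the lower left or upper right, where the direction is shared; fitted values far from 0 on a single axis include transcripts without counts in a group.

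The abundant transcripts differed mostly in 1 direction. Of the 20 with the highest mean TPM over both groups (4470 TPM or more), 18 were higher with TCDD and 2 with trichloroethylene, with a median log2 difference of 0.996 and a range of -0.51 to 1.46. Of the top 100, 86 were higher with TCDD, 10 with trichloroethylene and 4 were not called, beside 29.6% called in each direction over all transcripts. These 100 were short, with a median length of 577 bases against 2019 over all tested. On log2(TPM + 1), 59 of the 100 were called higher with TCDD and 13 with trichloroethylene, and the median difference was 0.39. Without TCDD replicate 2 the counts were 70 and 10, with a median of 0.69. With a covariate for library fragment length they were 67 and 9, with a median of 0.56. Over all tested transcripts, log2(TPM + 1) gave 2248 toward TCDD and 7377 toward trichloroethylene, with a median of -0.32. Without TCDD replicate 2 these totals were 4254 and 4628, and with the covariate 4217 and 4462. At 6 h, 0 of the 100 were called, which follows from 0 calls among all 15990 tested transcripts.

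By abundance, calls were least frequent where counts were lowest. Among the 3198 transcripts of the lowest of 5 equal classes by mean TPM (up to 2.12 TPM), 28.5% were called, and the median SE of the log2 difference was 0.62. In the highest class (44.8 TPM or more) 73% were called with a median SE of 0.11. The balance turned with abundance: in the next class above the lowest 633 were higher with TCDD and 1168 with trichloroethylene, and in the highest class 1681 and 654. Called differences over 2-fold were most frequent in that low class at 29.9%, beside 24.1% in the lowest class and 17.8% in the highest.

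The TCDD libraries also concentrated their RNA in fewer transcripts. The 100 most abundant transcripts of a library made up 39.0%, 43.1% and 35.9% of TPM in the TCDD libraries and 32.9%, 32.7% and 32.0% in the trichloroethylene libraries. The number of transcripts that together make 50% of TPM was 187, 144 and 228 with TCDD and 336, 348 and 363 with trichloroethylene. The groups do not overlap in either measure, and TCDD replicate 2 is the extreme library in both. The controls of 24 h needed 347 to 405 transcripts.

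Length separated the 2 lists. Transcripts higher with trichloroethylene had a median length of 2556 bases, those higher with TCDD 1795 bases and those not called 1896 bases. In the longest quartile (3141 bases and more), 1805 of 3998 transcripts (45.1%) were higher with trichloroethylene and 660 (16.5%) with TCDD. In the shortest quartile (up to 1291 bases) the counts were 800 (20%) and 1312 (32.8%). The median log2 difference went from 0.20 in the shortest quartile through 0.14 and 0.06 to -0.31 in the longest. At 6 h the same quartiles had medians of 0.03, 0.01, 0.01 and 0.00. On log2(TPM + 1) the 24 h medians were -0.225, -0.236, -0.258 and -0.54. With the covariate for library fragment length they were 0.08, 0.10, 0.08 and -0.26. In both of these settings only the longest quartile stood apart. With the covariate, 981 transcripts of the shortest quartile were called higher with TCDD and 835 with trichloroethylene.

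The gap between the longest and the shortest quartile, -0.52 on the log2 scale, was not equal in the 3 TCDD libraries. Set singly against the mean of the trichloroethylene group it was -0.45, -0.82 and -0.22 for TCDD replicates 1, 2 and 3. Without TCDD replicate 2 the gap was -0.34. Transcripts of the longest quartile took 23.6%, 19.3% and 26.0% of the counts in the TCDD libraries, 32.7%, 31.3% and 32.8% in the trichloroethylene libraries and 33.6% to 36.7% in the 24 h controls. The fragment length of a library was taken as the difference of a transcript's length and its effective length. It put the groups in the same order, with 230, 238 and 234 bases with TCDD and 248, 258 and 259 with trichloroethylene. The 24 h controls had 270 to 289 bases. Within the TCDD group these measures did not run together, since replicate 2 had the longest fragments and the lowest share. The mean transcript length weighted by counts was 2361 ± 177 bases with TCDD and 2862 ± 44.4 bases with trichloroethylene (SD, n = 3). For each of 5 measures (this mean, the share of the longest quartile, fragment length and both measures of concentration above) an exact two-sided permutation test of 3 against 3 libraries gave p = 0.1, the smallest it can give, and 0.1 after Benjamini-Hochberg adjustment over the 5. With fragment length as a covariate the gap was -0.34 and 8679 transcripts were called between the compounds. On log2(TPM + 1) the gap was -0.315. The sources used here give no RNA integrity values, and the part of library quality in the length gap was not tested.

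**Figure D4:**
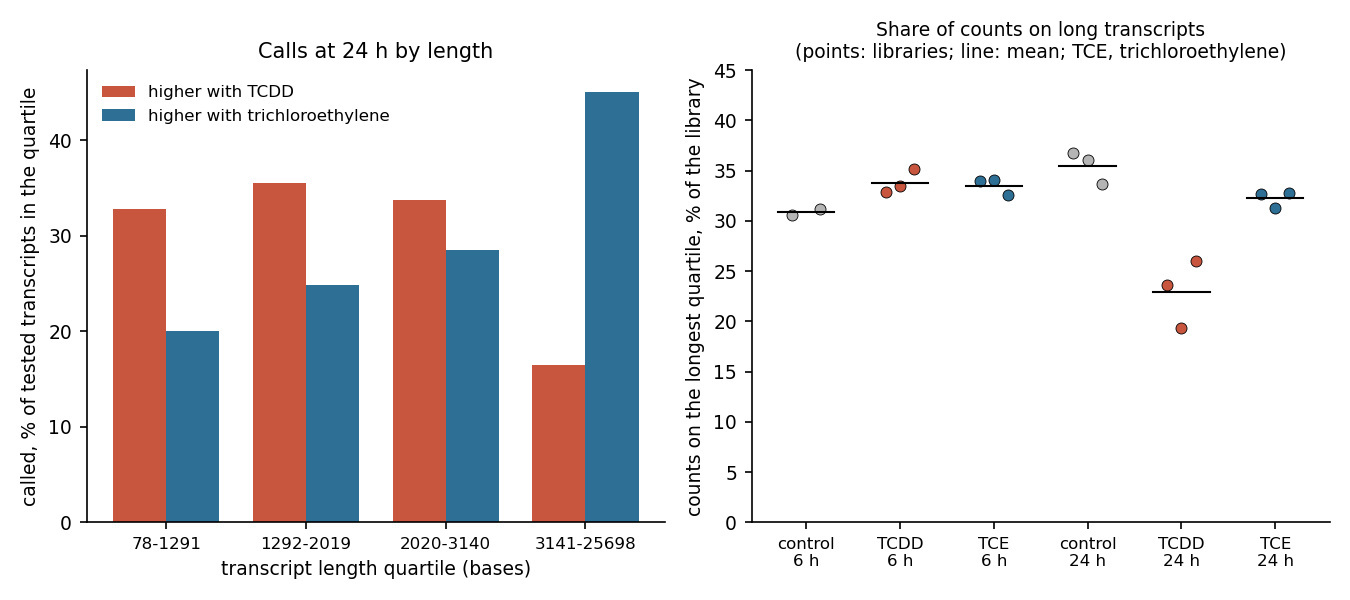
Left, the share of tested transcripts in each length quartile called higher with TCDD or with trichloroethylene at 24 h (bars from 0); right, the share of each library's counts on transcripts of the longest quartile, with points for libraries and a line for the group mean. Calls toward trichloroethylene take 45.1% of the longest quartile, and the TCDD libraries at 24 h, at 19.3% to 26.0%, lie below every other library drawn.

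Finally, 6510 transcripts (40.7%) were not called between the compounds at 24 h, and a missing call does not show equality. For 2625 of them (40.3%) the 95% interval of the difference stayed within 1.5-fold in either direction. For the other 3885 the interval reached beyond 1.5-fold, so a difference of that size is not excluded. The 2625 include transcripts without counts in either group at 24 h, whose fitted difference and SE are both 0. Such transcripts hold no information on the difference, and their number was not determined, so the 2625 and the 40.3% are upper limits. A further 898 transcripts were called although their interval lay within 1.5-fold.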

How the data were processed

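The deposited tables list every transcript of a library with its estimated count and its TPM, per the file headers. Per the submitters' processing notes they come from kallisto 0.43, a pseudoalignment tool that divides reads between similar transcripts. The deposited lengths and effective lengths are other values in bases. Transcript set, strand setting and trimming: not given in the sources used here.

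Estimated counts were rounded and filtered with filterByExpr (minimum count 10), which kept 15990 of 28420 transcripts. TMM factors and 1 edgeR 4.0.16 quasi-likelihood fit (R 4.3.3, robust) over all 29 libraries, with a coefficient per group and 19 residual degrees of freedom, served every contrast. Calls have a Benjamini-Hochberg adjusted p under 0.05 over all tested transcripts; the SE is the log2 change divided by the square root of F. A group without counts was set at 3 counts per library in medians and fold classes. The fit was also run on counts simulated from its own fitted means and dispersions. These hold no length effect between the compounds and no atypical library, so they do not check the calls against either.

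The planned rule named the 2 called transcripts per direction with the largest difference and at least 10 counts per library and 10 TPM in a group; 1 copy was replaced. Gene lists were planned and not used, since no identifier matched a name. Members and lists were chosen with earlier results of these data known. Alternatives were DESeq2 1.42.0, limma 3.58.1 on log2(TPM + 1), other scalings and filters, fewer groups, a replicate block, a fragment length covariate and leaving out each library. Chi-square values per degree of freedom between replicates at 24 h ran from 3.2 to 28.8, so none was a duplicate.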

Additional observations from a re-analysis of the deposited data

Results flagged for a closer look

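The difference between TCDD and trichloroethylene was itself different at 24 h and 6 h in 7347 transcripts, by the interaction test of edgeR. The interaction, the log2 difference at 24 h less that at 6 h, was 6.50 ± 0.38 (SE) for ENSRNOT00000049667 and 4.45 ± 0.38 for ENSRNOT00000071549 (edgeR adjusted p = 2.7e-12 and 3.8e-09). For ENSRNOT00000030765 it was -4.35 ± 0.14 and for ENSRNOT00000041456 it was -4.13 ± 0.32 (edgeR adjusted p = 3.8e-17 and 7e-10). These 4 were picked for their difference at 24 h on the same libraries, so the direction of the interaction follows in part from that choice. Groups of 3 libraries were not searched for outlying samples.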

How the results depend on the processing

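Over 12 results, which include both identifiers of the copied pair, 187 values were recomputed; 185 were labelled unchanged and 0 reversed. Named transcripts had to keep their direction and side of the threshold, and counts to stay within 1.5 times. The length gap had to stay within the SD of the gaps of single TCDD libraries. Counts were judged on their total, so the shifts between directions on total counts and log2(TPM + 1) were not marked. The 2 exceptions concern TCDD against trichloroethylene at 6 h, where DESeq2 called 5 transcripts; leaving out single libraries gave 0 to 1, the 1 without TCDD replicate 2. The cause was not tested. The count at 24 h ran from 8234 (filter at 10 CPM) to 9625 (limma on log2(TPM + 1)), and from 8716 to 9222 without single libraries, and that over 2-fold from 2618 to 3791, or 3365 to 3862 without single libraries. With a replicate block the count at 24 h was 9353. The replicate numbers showed no pairing of the samples: same-numbered TCDD and trichloroethylene libraries correlated in their deviations at -0.02, 0.01 and 0.03. At 6 h these values were -0.02, -0.07 and -0.14. With 3 libraries per group, such values cannot exclude a shared culture or animal. Keeping copies once, an alternative chosen after the data were seen, gave 9431; 81 sets of tested transcripts held such copies. The length gap ran from -0.66 to -0.34 without single libraries. Precision was lowest up to 2.12 TPM, with a median SE of 0.62.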
